A study of Mus musculus with 8 samples.

Results

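FOXA1-only loops were the chromatin loops listed for FOXA1 in both a primary tumor and a liver mets cell line of pancreatic cancer and listed for HNF4G in neither line. A loop was counted as the same when both of its anchors, the 2 stretches of DNA that it joins, had identical coordinates in mm10. The members were chosen by this listing and by no other value, and 14662 of the 249200 distinct loops of the series met it. They were set against the 4521 HNF4G-only loops, which were in both HNF4G lists and in neither FOXA1 list. The rule used the listing itself, so both numbers describe how the loops were chosen and are not a result.

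The loops came from Hi-ChIP, in which chromatin contacts are captured by ligation and the fragments bound by a chosen protein are pulled down and sequenced in pairs. The 8 samples fell into 4 groups of 2 replicates, namely FOXA1 tumor, FOXA1 liver mets, HNF4G tumor and HNF4G liver mets. All were untreated mouse pancreatic cancer cells labelled as WT, grown in DMEM with FBS, from the KPC model, mice engineered to form tumors of the pancreas. Each context was 1 cell line, the liver mets line being matched to the primary tumor line, and each group had 1 deposited list covering both replicates. The value per replicate and the sequencing depth are therefore unknown, no test between groups was possible, and all intervals below are 95% intervals for counting error only that take each loop as independent of the rest, which they are not where they end at the same anchor. The FOXA1 lists were longer, at 125623 loops (liver mets) and 104136 loops (tumor), against 78098 and 76323 for HNF4G, and a longer list can by itself hold more loops that the other factor lacks.

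FOXA1 is a forkhead transcription factor and a pioneer factor, able to bind its site in closed chromatin and open it for other factors. HNF4G is a nuclear receptor of the HNF4 family, which is tied to endodermal and epithelial identity. Enhancers bound by such factors can lie far from the genes that they act on, and a loop brings enhancer and promoter together. Loops also join promoters with each other and enhancers with each other, and many are held by cohesin at sites bound by CTCF.

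The sequences below show what the anchors of the strongest FOXA1-only loops look like. They come from the 6 loops with the highest smaller value of their 2 FOXA1 lists, here named loop 1 to loop 6, and are 120 bases of the plus strand of GRCm38 (mm10) chosen around a forkhead motif. The capitals mark TGTTTAC or TGTTTGC or their reverse complements, the core that forkhead proteins are known to bind. The 12 anchors of these loops were 2.02 to 11.1 kb wide, with a median of 5.13 kb. This motif lay somewhere in the length of 10 of them, or 83.3% (55.2 to 95.3). It did so in 68.6% (68 to 69.3) of all anchors within these widths, whose median width was smaller, at 2.75 kb. The stretches printed are those of loops 1 and 4 at both ends and 1 end each of loops 5 and 6, none of which overlapped an annotated exon. The stretches of loops 1 and 4 lay outside annotated genes, and those of loops 5 and 6 lay in introns of Ilkap and Acap2.
Loop 1 first end, chr6:115314066-115314185: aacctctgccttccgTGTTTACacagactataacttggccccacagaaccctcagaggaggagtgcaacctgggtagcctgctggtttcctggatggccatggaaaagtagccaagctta
Loop 1 second end, chr6:115527682-115527801: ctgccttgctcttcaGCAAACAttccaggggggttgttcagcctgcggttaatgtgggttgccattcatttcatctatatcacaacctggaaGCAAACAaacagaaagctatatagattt
Loop 4 first end, chr16:29735444-29735563: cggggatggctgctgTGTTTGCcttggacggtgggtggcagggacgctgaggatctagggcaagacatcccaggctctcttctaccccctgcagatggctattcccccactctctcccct
Loop 4 second end, chr16:30053356-30053475: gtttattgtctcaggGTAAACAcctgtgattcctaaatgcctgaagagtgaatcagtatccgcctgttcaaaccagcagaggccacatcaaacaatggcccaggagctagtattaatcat
Loop 5 second end, chr1:91398402-91398521: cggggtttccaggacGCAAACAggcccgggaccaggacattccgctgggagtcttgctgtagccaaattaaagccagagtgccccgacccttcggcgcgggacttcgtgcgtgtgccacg
Loop 6 second end, chr16:31166140-31166259: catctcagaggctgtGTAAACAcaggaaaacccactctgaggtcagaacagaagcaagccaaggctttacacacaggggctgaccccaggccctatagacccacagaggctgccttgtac
A match in these stretches is a description of the letters and not a mapped binding site. The second end of loop 1 showed 2 matches within the stretch printed and 4 over the whole anchor.

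Of the 42760 loops in both FOXA1 lists, 34.3% (33.8 to 34.7) were in neither HNF4G list. A further 19% were in the HNF4G liver mets list alone, 15.9% in the HNF4G tumor list alone and 30.8% in both. The mirrored share was 17.6% (17.2 to 18.1) of the 25669 loops in both HNF4G lists. With the lists made equally long, by taking the 5587 loops of highest value from each, 445 FOXA1-only loops (36.4%) stood beside 463 HNF4G-only loops (37.8%), so the larger number of FOXA1-only loops was not seen at equal length. Of all loops listed for FOXA1, these were 11.7% in liver mets and 14.1% in tumor.

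Each list gave a value per loop, read here as the −log10 of an adjusted p. Over the FOXA1-only loops it had a median of 1.07 in liver mets, with a range of 0.0490 to 20, and of 1.30 in tumor, with a range of 0.0859 to 20. A value of 2 or more was reached by 1396 loops in liver mets and by 1219 in tumor, and by 339 loops (2.31%) in both lists. The other loops of both FOXA1 lists reached it in both lists more often, in 1998 of 28098 loops (7.11%). Many values were tied. The most frequent value in the liver mets list was 0.0889, held by 2256 FOXA1-only loops (15.4%) with a median span of 68.7 kb, and the next was 1.87, held by 812 loops with a median span of 980 kb. In the tumor list these were 0.123, held by 2785 loops (19%) with a median span of 59.4 kb, and 1.91, held by 1072 loops with a median span of 870 kb. Just outside the rule stood 14930 loops of both FOXA1 lists that were kept out by a single HNF4G list. Their median value in that list was 0.487, and 1225 of them had 2 or more.

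FOXA1-only and HNF4G-only loops had nearly the same spans, and both were longer than the loops that the factors shared. The span, taken between anchor midpoints, had a median of 119 kb (quartiles 50.7 and 262) for FOXA1-only and 117 kb (51.9 and 258) for HNF4G-only loops. Loops of 100 kb or more made up 55.7% (54.9 to 56.5) of FOXA1-only and 55.9% (54.4 to 57.3) of HNF4G-only loops, a difference of -0.21 percentage points with an interval of -1.86 to 1.45. The loops of both FOXA1 lists that an HNF4G list also held were shorter, with a median of 42.8 kb and 25.2% of 100 kb or more. The difference from FOXA1-only loops was 30.5 points (29.5 to 31.4). Loops in all 4 lists were shorter still, with a median of 29.8 kb, and all distinct loops of the series were longer, with a median of 221 kb.

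The share of FOXA1-only loops rose with each span range. Of the loops in both FOXA1 lists it was 9.36% (8.48 to 10.3) for spans of 5 to 10 kb, 44.1% (43.0 to 45.2) for 100 to 200 kb and 84.1% (80.6 to 87.1) for 1000 to 2000 kb. The mirrored HNF4G share rose likewise, from 3.21% to 25.7% and 80.6% in the same ranges. The number of FOXA1-only loops for each HNF4G-only loop stayed between 2.79 and 3.65 over the 8 ranges. Between the anchors of a FOXA1-only loop lay a median of 5 other anchors, and 11.3% of the loops joined neighboring anchors, close to the 11.3% of HNF4G-only loops and below the 26.8% of the loops shared with HNF4G.

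**Figure D1:**
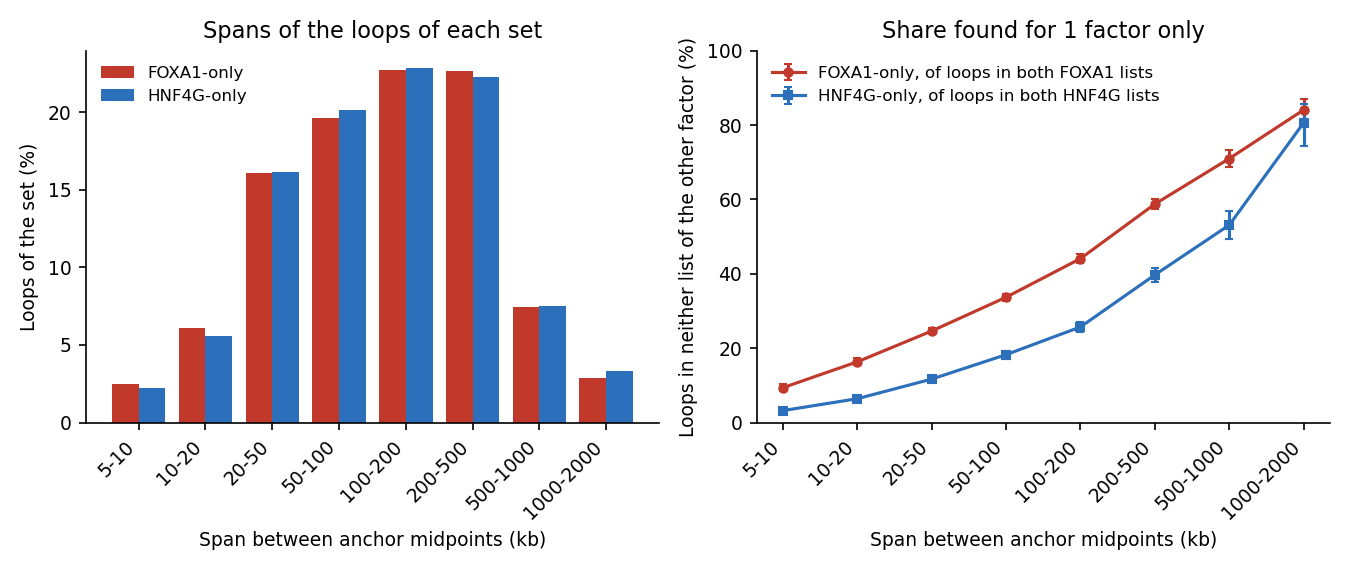
The left panel gives the percent of FOXA1-only (red) and HNF4G-only (blue) loops in each range of span in kb, and the right panel gives the percent of loops common to a factor's 2 lists that neither list of the other factor held, with 95% Wilson intervals. Both sets have nearly the same spans, and the share listed for 1 factor alone climbs with span from 9.36% to 84.1% for FOXA1.

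FOXA1-only loops ended at promoters less often than HNF4G-only loops did. An anchor was counted as a promoter anchor when an annotated transcription start lay within 2 kb of it. Of the FOXA1-only loops 32.1% (31.4 to 32.9) had no promoter anchor, 42.9% (42.1 to 43.7) had 1 and 25% (24.3 to 25.7) joined 2 promoter anchors. For HNF4G-only loops these shares were 22.1% (21 to 23.4), 44.8% (43.4 to 46.3) and 33.0% (31.7 to 34.4). The share with any promoter anchor was 67.9% against 77.9%, a difference of -9.99 points (-11.4 to -8.55). Within span ranges the Mantel-Haenszel odds ratio was 0.602 (0.556 to 0.651) for any promoter anchor and 0.676 (0.629 to 0.727) for 2 promoter anchors.

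Against the loops that the factors had in common, the odds ratio was below 1 for FOXA1-only loops and near 1 for HNF4G-only loops. Over all distinct loops of the series the picture was another. Of these 72.7% (72.5 to 72.9) had a promoter anchor, a share between those of the 2 sets. Promoter anchors made up 45.3% of FOXA1-only anchors, 53.4% of HNF4G-only anchors and 45.2% of all anchors. The side on which the difference lay thus depended on the reference. Against the loops of both FOXA1 lists that an HNF4G list also held, the odds ratio of any promoter anchor within span ranges was 0.663 (0.633 to 0.695) for FOXA1-only loops, and against loops in all 4 lists it was 0.534 (0.503 to 0.568). The same odds ratios for HNF4G-only loops were 0.951 (0.876 to 1.03) against loops of both HNF4G lists that a FOXA1 list also held and 0.924 (0.844 to 1.01) against loops in all 4 lists, with intervals that included 1. The difference between FOXA1-only and HNF4G-only loops was widest from 20 to 50 kb, at 63.1% against 76.4%, and from 50 to 100 kb, at 65.3% against 78.7%. Below 10 kb and above 1000 kb its interval included 0.

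**Figure D2:**
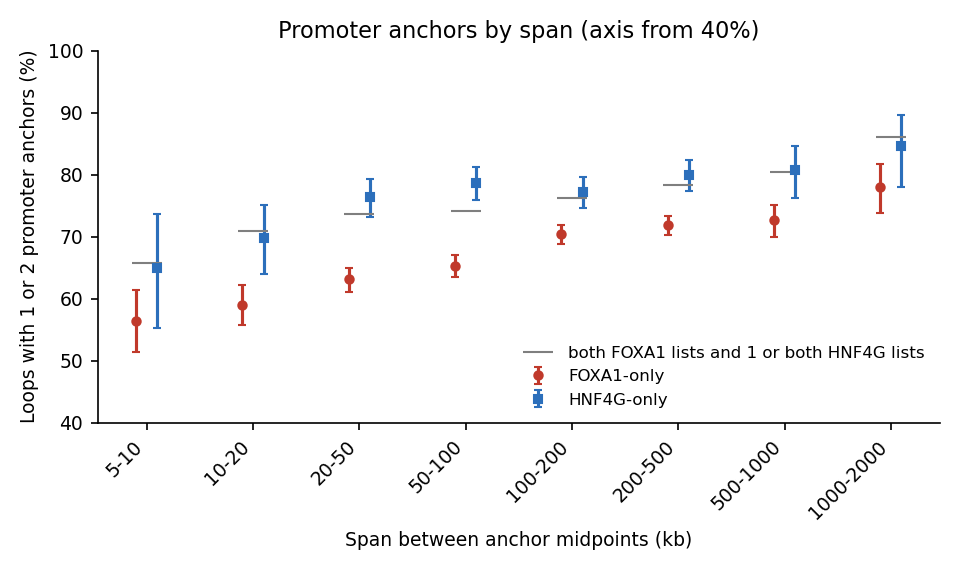
The percent of loops with 1 or 2 promoter anchors is plotted by span range in kb for FOXA1-only loops (red), HNF4G-only loops (blue) and loops of both FOXA1 lists that an HNF4G list also held (grey bars), with 95% Wilson intervals on the first 2 sets and an axis that starts at 40%. The FOXA1-only loops lie lowest in all 8 ranges, with 63.1% against 76.4% of the HNF4G-only loops from 20 to 50 kb.

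FOXA1-only and HNF4G-only loops with 1 promoter anchor joined the distal anchor to its nearest transcription start about equally often. The promoter anchor held that start in 409 of 6290 FOXA1-only loops, or 6.50% (5.92 to 7.14). For HNF4G-only loops it did so in 124 of 2026, or 6.12% (5.16 to 7.25). In FOXA1-only loops the distal anchor lay a median of 11.1 kb from the nearest start. Only 15439 of 53734 annotated genes had a promoter anchor, so not every nearest start could be joined by a loop. The share over all loops of the series is not given here, so these shares cannot be called low or high.

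The anchors of FOXA1-only loops were mostly anchors that HNF4G loops used as well, in other pairs. The loops used 16088 of the 30542 anchors. In 98.3% (98.1 to 98.5) of the FOXA1-only loops both anchors had a loop in 1 or both HNF4G lists, and in 89.8% (89.3 to 90.3) both had a loop in each of the 2 HNF4G lists. HNF4G loops that joined the immediate surroundings were also common. For 37.8% of the FOXA1-only loops an HNF4G loop joined anchors within 5 kb of both ends, and for 79.0% one did within 25 kb. For HNF4G-only loops and FOXA1 the shares were 45% and 84.4%. In 96.7% (96.1 to 97.2) of the HNF4G-only loops both anchors had a loop in each of the 2 FOXA1 lists. The rule itself made the HNF4G lists lack the exact pairs of the FOXA1-only loops, and their anchors seldom lacked an HNF4G loop. How often this holds for any loop of the series is not given here. Of the FOXA1-only anchors 53.7% carried 1 FOXA1-only loop and 622 carried 5 or more. Of the 7138 HNF4G-only anchors 79.2% carried 1 HNF4G-only loop and 16 carried 5 or more.

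The exception was a group of 243 FOXA1-only loops (1.66%) with an anchor that had no HNF4G loop in either line. They turned on 214 such anchors, of which 28.5% were promoter anchors, against 45.3% of all FOXA1-only anchors. Their median GC content was 43.3%, against 48.4%. A forkhead motif lay in the central 1000 bases of 93 of them, or 43.5% (37.0 to 50.2). The share was 36.6% of all FOXA1-only anchors and 43.4% of all anchors of the series with no start within 2 kb. The loops had a median span of 73.6 kb. Chromosome 1 held the most, with 29, followed by chromosome 12 with 24 and chromosome 13 with 18. These chromosomes held 7.50%, 2.44% and 4.15% of all FOXA1-only loops.

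Motifs were counted in the central 1000 bases of each anchor on both strands. A forkhead motif was found at 36.6% (35.9 to 37.4) of FOXA1-only anchors and at 32.1% (31 to 33.2) of HNF4G-only anchors, a difference of 4.51 points (3.19 to 5.82). With the lists made equally long it was 10.6 points (6.04 to 15.2), a value added after the data were seen. Of the 445 FOXA1-only loops of that setting, 325 were listed for HNF4G in the full lists. Over all 30542 anchors the share with the motif was 36.8%. The FOXA1-only anchors thus held it about as often as any anchor and the HNF4G-only anchors less often. Both ends held it in 13.1% (12.5 to 13.6) of FOXA1-only loops, 9.87% (9.03 to 10.8) of HNF4G-only loops and 9.64% of loops in all 4 lists. Over all distinct loops of the series this share was 11.9%, and it was 11% for loops of both FOXA1 lists shared with HNF4G. The FOXA1-only share thus lay a little above that of all loops and the HNF4G-only share below it.

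The difference was smaller at equal base composition. Within 5 equal classes of GC content, a comparison added after the data were seen, the odds ratio of a forkhead motif was 1.09 (1.02 to 1.16) over all anchors of each set. Taking only the anchors used by 1 set and not by the other, it was 1.08 (0.982 to 1.18). Among those without a start within 2 kb the shares were 43.9% and 42.3%, with an odds ratio of 0.985 (0.871 to 1.11). Among promoter anchors they were 31.1% and 24.2%, with an odds ratio of 1.21 (1.05 to 1.39). Over all anchors of the series the share was 43.4% without a start within 2 kb and 29.0% at promoter anchors. At promoter anchors the FOXA1-only share thus lay nearer to that of all anchors than the HNF4G-only share did. The forkhead interval was thus above 1 at promoter anchors and included 1 away from them. Whether these odds ratios differ from each other was not tested.

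The motif TGANTCA of AP-1, the family of Fos and Jun factors, was found at 42.6% of the anchors used by FOXA1-only and not HNF4G-only loops and at 34.6% of those used the other way round, with an odds ratio within GC classes of 1.13 (1.03 to 1.24). Away from starts the AP-1 odds ratio was 1.18 (1.04 to 1.34), on shares of 51.8% and 45.7%. Its share was 39.8% over all anchors and 50.4% over all anchors with no start within 2 kb. Away from starts the FOXA1-only anchors thus lay near the share of all such anchors and the HNF4G-only anchors below it. The HNF4 motif, CAAAGTCCA or CAAAGTTCA, was rare, at 3.17% and 3.32% of the anchors of 1 set alone and 3.22% of all anchors. The CTCF core, searched as AGGGGGCGC, AGGTGGCAG, AGATGGCAG and AGGGGGCAG, was found at 9.03% and 10.0% of them and at 9.05% of all anchors. For both of these the interval of the difference included 0. A match of 1 of these motifs cannot lie inside a match of another.

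**Figure D3:**
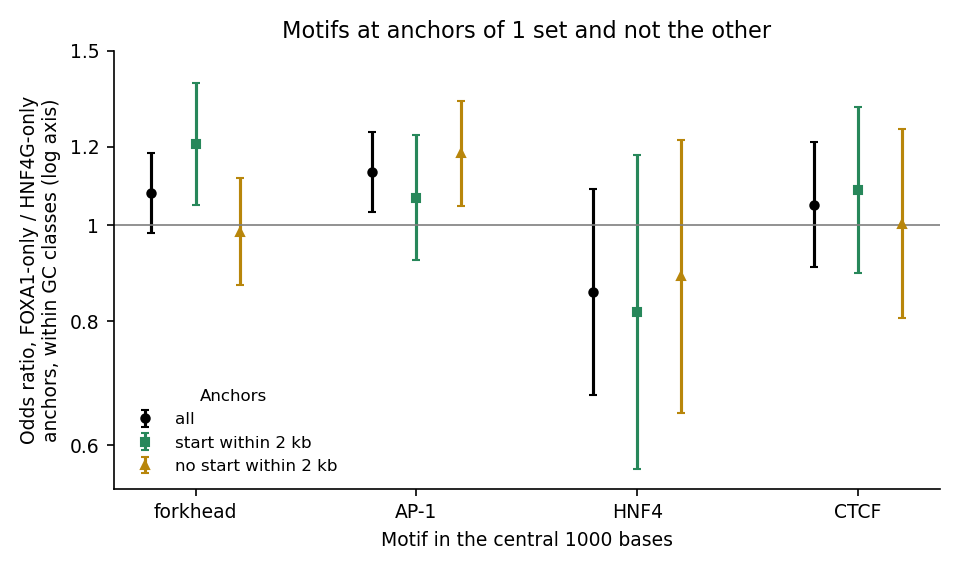
Odds ratios of holding a motif, for anchors used by FOXA1-only loops against anchors used by HNF4G-only loops and compared within 5 classes of GC content, are plotted on a log axis with 95% intervals for all such anchors (black), promoter anchors (green) and anchors with no start within 2 kb (yellow). The forkhead interval is above 1 at promoter anchors, the AP-1 interval away from them, and the HNF4 and CTCF intervals all include 1.

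Of the 12 ends of the 6 strongest FOXA1-only loops 8 were not at a promoter, beside 54.7% of all anchors of FOXA1-only loops. Loop 1 had a value of 20 in liver mets and 11.8 in tumor and spanned 212 kb of chromosome 6, from 115312144-115319990 to 115526141-115529458. Its first anchor lay 44.9 kb from the nearest start, that of Pparg, a nuclear receptor of fat cell differentiation. Neither anchor was at a promoter, the second overlapped an exon of the non-coding gene Gm36355, and 12 other anchors lay between them. The first anchor carried 46 FOXA1 loops in the mets line and 37 in the tumor line, and HNF4G loops were listed at it too, 21 in liver mets and 24 in tumor.

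Loop 2 had 11.8 in liver mets and 11.6 in tumor and spanned 603 kb of the keratin region of chromosome 15. It ran from 101335521-101340819, 26.4 kb from the start of Krt80, to 101938344-101943313 at the promoter of Krt79. Loop 3 had 20 in liver mets and 11.6 in tumor and spanned 130 kb of chromosome 5, between 101119310-101122325 and 101249487-101251884. Its anchors overlapped no annotated gene, and the nearest coding start, that of Gpat3, an enzyme of triglyceride synthesis, lay 274 kb from the first of them. This was the named loop with the fewest HNF4G loops at its anchors. The first anchor had 11 FOXA1 loops in the mets line and 6 in the tumor line, against 2 and 0 for HNF4G, and the second had 14 and 15, against 2 and 1.

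Loop 4 had 7.69 in liver mets and 7.89 in tumor. It joined 29734367-29736382 on chromosome 16 to 30050328-30061409, 320 kb away and 8.52 kb from the start of Hes1, a repressor that acts downstream of Notch. Loop 5 had 9.13 and 7.18 and joined 2 promoter anchors on chromosome 1 over 220 kb. These were 91178011-91183391 at Ramp1, which encodes a partner of the calcitonin-like receptor, and 91398208-91402476 at Ilkap, a phosphatase associated with integrin-linked kinase. Loop 6 had 6.38 and 6.83 and ran over 198 kb of chromosome 16, from 30968358-30974372, in Xxylt1 and at the start of the non-coding gene Gm15742, to 31165207-31174192 in an intron of Acap2. Loops 4 and 6 lay on neighboring stretches of chromosome 16. Of the 6 loops 3 had no promoter anchor, 2 had 1 and 1 had 2. Values of 4 or more in both lists were reached by 30 FOXA1-only loops in all, against 672 of the loops shared with HNF4G.

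The anchors with the most FOXA1-only loops had 12 or 11 of them. An anchor on chromosome 11 at 100153155-100161995, 8.91 kb from the start of the simple keratin gene Krt19 and at no promoter, had 12 FOXA1-only and 0 HNF4G-only loops, with spans of 64.6 to 1800 kb. In all it had 71 FOXA1 loops in liver mets, 36 in tumor, and 28 HNF4G loops in each line. The anchor over the starts of Tk1, the thymidine kinase of dividing cells, and Afmid, an enzyme of tryptophan breakdown, also had 12 and 0. It lay at 117821995-117831811 of chromosome 11 and had 80 and 49 loops in the FOXA1 lists and 34 and 46 in the HNF4G lists of liver mets and tumor. The third with 12 was at Neat1, the non-coding RNA of paraspeckles, at 5826451-5838383 of chromosome 19, where 11 of the 12 loops ended at another promoter anchor.

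With 11 FOXA1-only loops each followed the anchor over Brms1, a subunit of histone deacetylase complexes, and B4gat1, an enzyme of dystroglycan glycosylation, at 5037275-5043526 of chromosome 19, an anchor at 134090753-134102743 of chromosome 1, 14.5 kb from the start of Chit1, and an anchor at 31184350-31188453 of chromosome 13. The anchor at Brms1 joined promoter anchors in 10 of its 11 loops, and the other 2 in 3 of 11. The anchor of chromosome 13 lay 212 kb from the nearest coding start. It had 23 FOXA1 loops in the mets line and 19 in the tumor line, against 7 HNF4G loops in each line.

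The anchors with the most HNF4G-only loops held fewer of them. That of Ache, the acetylcholinesterase gene, had 9 HNF4G-only and 1 FOXA1-only loop, with 27 HNF4G loops in liver mets and 42 in tumor against 23 and 22 for FOXA1. The anchor of Ccdc85b and Fibp had 6 and 3, and that of Spint1, an inhibitor of the proteases that activate hepatocyte growth factor, had 5 and 0, as 1 of 14 anchors with 5. All 3 were promoter anchors, and none of their HNF4G-only loops other than 3 at Ache ended away from a promoter.

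FOXA1-only loops were spread more evenly over the genome than the loops that both factors shared. They fell into 1439 of 2645 windows of 1 Mb by loop midpoint, and 203 windows held 50% of them. The Morisita index, which is 1 for loops strewn at random and does not depend on their number, was 4.71, against 5.78 for HNF4G-only loops, 6.49 for loops of both FOXA1 lists shared with HNF4G and 4.88 for all distinct loops. For the 339 FOXA1-only loops with a value of 2 or more in both lists, a value added after the data were seen, it was 6.60. The windows with the most were rich in genes and in loops of every kind. They were 5 to 6 Mb of chromosome 19 with 129 FOXA1-only loops, 4 to 5 Mb of chromosome 19 with 117, 120 to 121 Mb of chromosome 11 with 111, 6 to 7 Mb of chromosome 19 with 90 and 80 to 81 Mb of chromosome 10 with 86. HNF4G-only loops numbered 49, 39, 45, 24 and 36 in the same windows, and the first of them held the largest number of both sets.

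FOXA1-only loops were relatively more frequent where genes were sparse. In windows with 1 to 5 protein-coding starts lay 17.3% of the FOXA1-only and 10.8% of the HNF4G-only loops, a ratio of 1.60 (1.45 to 1.77). In windows with 31 or more starts lay 19.1% and 23.8%, a ratio of 0.804 (0.750 to 0.864). As a share of the loops in both FOXA1 lists, FOXA1-only loops fell from 47.8% (41.0 to 54.6) in the 29 windows without a coding start that held such loops to 30.4% (29.5 to 31.3) in those with 31 or more.

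Chromosome 13 stood apart. It held 609 FOXA1-only loops, or 4.15% of them, and 74 HNF4G-only loops, or 1.64%, a ratio of shares of 2.54 (1.99 to 3.28). The ratios of the other chromosomes lay between 0.752 on chromosome 7 and 1.36 on chromosome 16. FOXA1-only loops made up 46.8% (44.1 to 49.5) of the chromosome 13 loops in both FOXA1 lists, against 33.9% (33.4 to 34.4) on all other chromosomes. The whole lists leaned the same way, since in liver mets chromosome 13 held 3.24% of the FOXA1 and 2.46% of the HNF4G loops, and in tumor 3.05% and 2.33%. Of its FOXA1-only loops 56.7% had a promoter anchor, against 68.4% elsewhere. Without its 3 windows named below, also added after the data were seen, the ratio of shares was 2.25 (1.74 to 2.96).

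**Figure D4:**
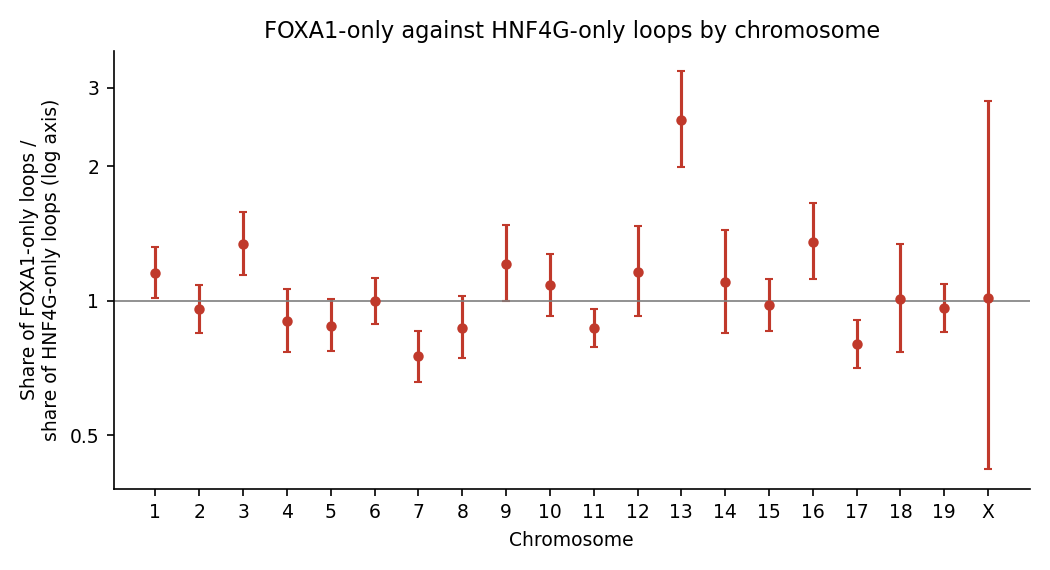
For each chromosome the share of all FOXA1-only loops divided by the share of all HNF4G-only loops is plotted on a log axis, with 95% exact intervals for counting error, and the grey line marks equal shares. Chromosome 13 lies at 2.54, the other chromosomes lie between 0.752 and 1.36, and the X chromosome, with 23 and 7 loops, is measured poorly.

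The 5 windows in which the share of FOXA1-only loops exceeded that of HNF4G-only loops the most included those 3 of chromosome 13. At 31 to 32 Mb there were 50 FOXA1-only and 4 HNF4G-only loops around a cluster of forkhead genes, Foxq1, Foxf2 and Foxc1, of which Foxq1 and Foxf2 had 3 FOXA1-only loops each and Foxc1 had 1. At 34 to 35 Mb there were 40 and 2, with 10 at the promoter of Slc22a23, a member of the solute carrier family, and at 97 to 98 Mb 37 and 2, with 5 at Enc1, an actin-binding protein. The strongest at Enc1 had 9.09 in liver mets and 4.89 in tumor over 223 kb. The window of chromosome 16 from 30 to 31 Mb, with Hes1, had 79 and 13. That of chromosome 5 from 90 to 91 Mb had 40 and 1 over the CXC chemokine cluster. There Cxcl5 had 8 FOXA1-only loops and Cxcl2 had 4, both genes encoding ligands that draw neutrophils, and neither had an HNF4G-only loop. Over that window 155 FOXA1 loops were listed in liver mets and 116 in tumor, against 67 and 59 HNF4G loops, and FOXA1-only loops made up 63.5% (51.1 to 74.3) of the 63 loops in both FOXA1 lists.

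Ranked by that share instead, among windows with 20 or more loops in both FOXA1 lists, a ranking chosen after the values were seen, the window of chromosome 10 from 98 to 99 Mb came first. There 22 of 24 loops (91.7%, 74.2 to 97.7) were FOXA1-only, and 4 of them ended at the promoter of Atp2b1, a calcium pump of the plasma membrane. The opposite end of the comparison was held by gene-rich windows. The largest excess for HNF4G-only was at 27 to 28 Mb of chromosome 17, with 40 FOXA1-only and 32 HNF4G-only loops and with Hmga1 and Bak1 among its genes, and at 56 to 57 Mb of chromosome 17, with 44 and 32. Windows of chromosomes 8 and 11 followed, with 24 and 22, 46 and 28, and 42 and 26.

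At the level of genes, 8403 of 15439 genes with a promoter anchor had 1 or more FOXA1-only loops, which is 54.4%, and 4794 had 1 or more HNF4G-only loops. Of the 9910 genes with a loop of either set, 6841 had more FOXA1-only than HNF4G-only loops, a background of 69%, 1904 had fewer, and the rest had as many. Since there were more FOXA1-only loops to begin with, an excess at a gene has to be read against this background. With the lists made equally long the background was 38.1%, a value added after the data were seen. The 20 coding genes with the largest excess, 1 for each group of genes that share anchors, are described by what they encode. They had between 11 and 19 FOXA1-only loops and between 0 and 5 HNF4G-only loops. The ranking was by number of loops, so genes with many loops of every kind can enter it without a high FOXA1-only share. Of the loops in both FOXA1 lists, 11 of 17 at Csad and 16 of 63 at Sept9 were FOXA1-only. Over all genes the share was 32.6%.

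Genes of the nucleus and of cell division were one group. Men1, which encodes the tumor suppressor menin and shares an anchor with Map4k2, had the largest excess with 19 FOXA1-only and 3 HNF4G-only loops, and 15 of the 19 ended at another promoter anchor. Its promoter anchors had 98 FOXA1 loops in the mets line and 89 in the tumor line, against 57 and 59 for HNF4G, so that both factors had many loops there. Pola2, a subunit of the DNA polymerase that primes replication, had 16 and 2, with 15 of the 16 at other promoter anchors. Lmna, the gene of nuclear lamins A and C, had 14 and 1, Msh5, a protein of meiotic recombination, 12 and 1, Ptbp1, a repressor of splicing, 11 and 0, and Brms1 13 and 3.

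A second group encoded parts of the cytoskeleton and its signalling. Iqgap1, a scaffold of the actin cortex, had 13 FOXA1-only loops and 1 HNF4G-only loop, with 30 loops in both FOXA1 lists and 8 in both HNF4G lists. Ssh3, of the slingshot family of cofilin phosphatases, had 15 and 1, Sept9, a septin, 16 and 5, and Mlph, which links pigment organelles to myosin, 15 and 1. The loops of Mlph reached 48.5 to 1887 kb, and the strongest, of 282 kb, had 5.11 in liver mets and 3.21 in tumor. Cyth1, which activates ARF GTPases, had 12 and 0, with 81 FOXA1 loops in the mets line and 51 in the tumor line against 30 and 37 for HNF4G.

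Genes of lipids, membranes and growth signalling made up most of the rest. Ergic1, a membrane protein that cycles between the endoplasmic reticulum and the Golgi and shares an anchor with Dusp1, had 19 and 4, and Rptor, the subunit of the mTOR complex that recognizes its substrates, 16 and 3. Osbpl3, of the oxysterol-binding family, had 14 and 1, Pitpnm1, a phosphatidylinositol transfer protein, 13 and 1, Plcb3, a phospholipase C, 12 and 2, and Plekha6, a protein with a pleckstrin homology domain, 15 and 1. Ppp1r1b, an inhibitor of protein phosphatase, had 11 and 1, and Csad, an enzyme of taurine synthesis, 11 and 0. Afmid stood for the anchor that it shares with Tk1, given above. Of these 20 genes 11 lay on chromosomes 11 and 19, which held 13.2% of the coding genes with a promoter anchor.

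The 5 genes with the largest deficit were Ache with 1 FOXA1-only and 9 HNF4G-only loops, Dlx3, a homeobox factor of epithelia, with 0 and 6, Cacna1g, a calcium channel, with 2 and 7, Caskin1, a scaffold protein, with 0 and 5, and Spint1 with 0 and 5. At each of them the tumor list of HNF4G held more loops than any other list. At Dlx3 it held 53, against 35 for HNF4G in liver mets, and FOXA1 had 27 in tumor and 26 in liver mets.

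Gene lists for the tissue were read against all genes, where FOXA1-only loops made up 32.6% (32.1 to 33.1) of the 30520 loops in both FOXA1 lists that ended at a promoter anchor. For endoderm and pancreatic transcription factors the share was 29.3% (23.1 to 36.3), on 53 of 181 loops. Of its 23 genes with a promoter anchor, 17 had a FOXA1-only loop, 73.9% beside the 54.4% of all genes. More FOXA1-only than HNF4G-only loops were found at 14 of 20, 70.0% beside the 69% of all genes. The list's genes with a promoter anchor had a median of 2 FOXA1-only loops, against 1 over all genes. Such counts of genes are therefore not compared at equal numbers of loops. Klf6 had 8 and 0, Klf5 had 7 and 0 and Hhex had 6 and 0, the first 2 being Krüppel-like factors of epithelia and the third a homeobox factor of endoderm. Klf5 was listed with 27 FOXA1 loops in the mets line and 25 in the tumor line, and with 11 HNF4G loops in each line. Its strongest FOXA1-only loop, of 227 kb, had 4.69 in liver mets and 3.08 in tumor.

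Epithelial keratins and junctions had a lower share, 22.4% (17.6 to 28.0) of 246 loops. Of their 16 genes with a loop of either set 14 had more FOXA1-only loops, 87.5% beside the 69% of all genes. Cdh1, the gene of E-cadherin, had 7 FOXA1-only and 0 HNF4G-only loops, with 62 FOXA1 loops in the mets line and 41 in the tumor line against 28 and 42 for HNF4G. The junction genes Jup and Tjp3 had 7 and 3 and 7 and 5. Basal and mesenchymal genes stood at 21.1% (14.9 to 29.2) of 123 loops, with Itgb4 at 5 and 1 and Fn1 at 3 and 0, genes of an integrin and of fibronectin. More loops of these genes were thus common to both factors than over all genes, and the 2 lists stood side by side.

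Among signalling pathways, Hippo and TEAD genes had 38.1% (30.5 to 46.4) of 139 loops. Vgll4, a repressor of TEAD factors, had 11 FOXA1-only and 2 HNF4G-only loops, and Tead3 and Tead1, factors that bind DNA for this pathway, had 10 and 2 and 6 and 2. In the Notch pathway the share was 20.7% (15.2 to 27.6) of 164 loops. Hes1 had 9 and 0, Rbpj, the factor that binds DNA for the pathway, 6 and 0, and the ligand gene Jag1 4 and 1. The strongest FOXA1-only loop of Hes1 had 7.80 in liver mets and 2.69 in tumor over 170 kb, and that of Jag1 had 7.26 and 3.25 over 297 kb. For the Wnt pathway the share was 24.6% (18.6 to 31.6) of 167 loops, with Ctnnb1, the gene of beta-catenin, at 6 and 1, Axin1 at 5 and 1 and Tcf7l1 at 4 and 0.

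For the TGF-beta and BMP pathway the share was 27.9% (21.3 to 35.6) of 147 loops, beside 32.6% over all genes. Of its 15 genes with a loop of either set 14 had more FOXA1-only loops, 93.3% beside 69%. The median number of FOXA1-only loops at its genes with a promoter anchor was 1, as it was over all genes. Smad7, which inhibits the receptors, had 7 and 2, Ski, a repressor of SMAD factors, 5 and 0 and Smad3 4 and 2. EGF receptor family and RAS feedback genes stood at 23.2% (17.7 to 29.8) of 185 loops, with the phosphatase genes Dusp1 at 6 and 2, Dusp10 at 6 and 0 and Dusp6 at 5 and 1. Axon guidance genes stood at 23.6% (19 to 29.0) of 271 loops, with the ephrin receptor genes Ephb3 at 8 and 2 and Ephb4 at 7 and 0, and the semaphorin receptor gene Plxnd1 at 7 and 1. AP-1 factors stood at 21% (14.2 to 29.98) of 100 loops. They had the lowest share of genes with more FOXA1-only loops among the pathway lists, 5 of 11, or 45.5% beside 69%. Mafk had 4 and 0, and Atf3 and Fosl1 had 3 and 1 each.

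Among the lists with 20 or more loops in both FOXA1 lists, loop and chromatin machinery had the highest share, 43.2% (33.0 to 54.1) of 81 loops, and its HNF4G-only share was 24.4% (13.8 to 39.3) of 41 loops against 18% over all genes. Arid1a, a subunit of the SWI/SNF remodeling complex, had 8 and 1, Smc3, a subunit of cohesin, 7 and 1 and Prmt1, an arginine methyltransferase, 4 and 1. Pancreatic cancer drivers stood at 32.6% (23.9 to 42.7) of 92 loops, with Myc at 5 and 0 and Trp53 at 5 and 0 beside Arid1a, which is in both lists. The strongest FOXA1-only loop of Myc had 20 in liver mets and 3.70 in tumor over 515 kb. Trp53 had 7 loops in both FOXA1 lists and 0 in both HNF4G lists, but each HNF4G list held some, 6 in liver mets and 8 in tumor. The ribosomal protein list stood at 31.2% (26.0 to 36.8) of 279 loops. It was drawn by symbol and so also took in S6 kinase genes such as Rps6kb2, which had 9 and 2, as did Rpl10a, while Rpl13a had 6 and 1.

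**Figure D5:**
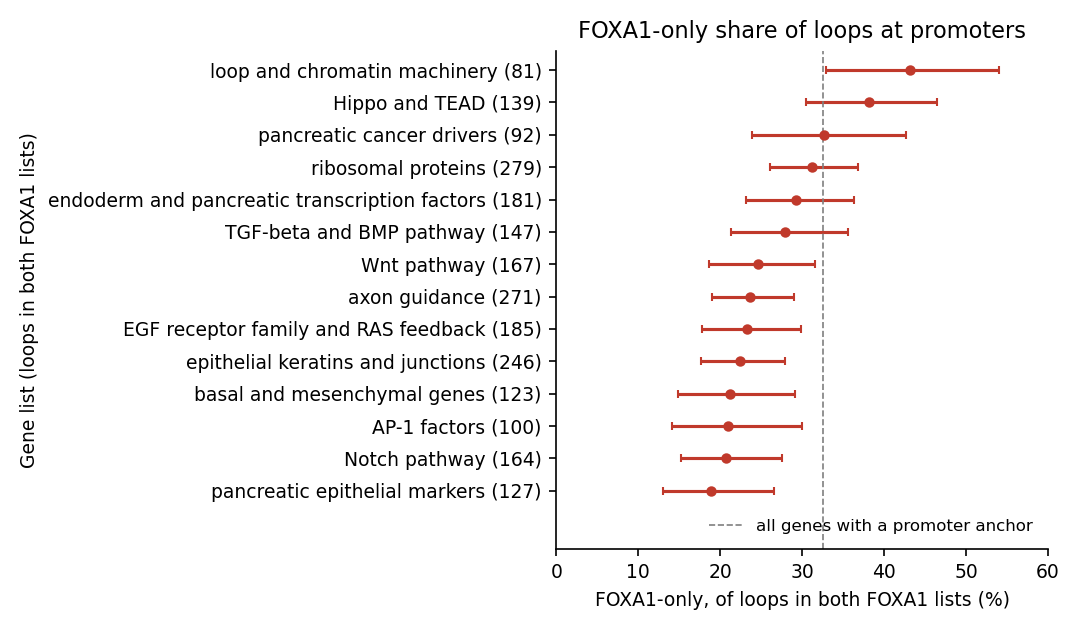
For each gene list with 20 or more such loops, the percent of loops in both FOXA1 lists ending at its promoter anchors that were FOXA1-only is plotted with 95% Wilson intervals, the number of loops in parentheses and all genes, at 32.6%, as a dashed line. Loop and chromatin machinery lies highest at 43.2% and pancreatic epithelial markers lowest at 18.9%.

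Markers of cell types were checked as loops at promoters, which do not measure expression. Of 8 pancreatic epithelial markers 7 had a promoter anchor, and their FOXA1-only share was 18.9% (13 to 26.6) of 127 loops. Krt18 had 6 FOXA1-only and 0 HNF4G-only loops, Krt19 had 4 and 1, Krt7 had 3 and 0, Krt8 had 3 and 1, Sox9 had 2 and 1 and Epcam had 0 and 2. Of 7 hepatocyte markers 2 had a promoter anchor, Apoa1 with 1 FOXA1-only loop and Apob with 0. Of 7 fibroblast markers 2 had one, Col1a1 with 2 and 0 and Pdgfra with 1 and 3, and of 6 immune markers only Cd68 did, with 1 and 1.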

How the data were processed

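Hi-ChIP was performed for FOXA1 and HNF4G in 2 KPC cell lines, with 2 replicates in each of 4 groups that were taken from the sample titles. The authors aligned paired reads to mm10 with HiC-Pro (version 3.1.0), assigned them to DpnII fragments, removed duplicates and called loops with hichipper. How replicates were joined, where anchors came from and the smallest number of read pairs per loop are not given in the sources used here, and the depth is unknown. The deposited value per loop carries no name and was read as a −log10 adjusted p from its ties and its end at 20, a reading with no other source. A score for display, also deposited, follows from the value rounded down (plus 1, times 10) in all 4 lists, so it was left aside.

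Loops were matched by identical anchor pairs. Starts and genes came from GENCODE M21 and sequence from GRCm38, the assembly of mm10, and all anchors ended inside its chromosomes. Shares have Wilson, differences Newcombe, ratios exact Clopper-Pearson and stratified odds ratios Robins-Breslow-Greenland intervals. Positions count from 1. Python 3.11.15, numpy 2.4.6, pandas 2.3.3 and scipy 1.17.1 were used, and the selection and intervals were tested on simulated data. The members, gene lists and tests were chosen with earlier results of these data known. Named were the 6 loops with the highest smaller value of both FOXA1 lists, the 6 and 3 anchors with the most FOXA1-only and HNF4G-only loops, the 5 windows with the most loops and with the largest share differences each way, the 20 and 5 coding genes with the largest excess and deficit, and 3 members per list with the most FOXA1-only loops. Window genes were taken from the named windows after their values were seen. Alternatives were a minimum value of 2, matching within 5 kb, an equal number of loops per list, and other spans, start distances, windows and motif stretches. Results for some items are not reported here.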

Additional observations from a re-analysis of the deposited data

How the results depend on the processing

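No paired analysis was possible because each group had 1 list that pools its replicates, and for the same reason no replicate could be left out. Intervals cover counting error only, and the depth behind the lists is unknown. When loops below a value of 2 were dropped from every list before the rule was applied, 1116 loops were FOXA1-only, 47.8% of those in both FOXA1 lists, of which 777 had an HNF4G listing below 2 and 339 had been FOXA1-only before, with a median span of 168 kb. The promoter difference was then -14.2 points with an odds ratio of 0.383, the Morisita index 9.92, the forkhead difference 10.4 points and the share of genes with more FOXA1-only loops 66.7%. Taking the 5587 highest-value loops of each list made 445 loops FOXA1-only, 120 of them FOXA1-only in the full lists, or 36.4% of those in both FOXA1 lists, and 463 HNF4G-only loops, 37.8%, so at equal list size the numbers of the 2 sets were similar. In that setting, which for the values that follow was added after seeing the data, the median span was 210 kb, the difference in loops of 100 kb or more 4.13 points (-1.41 to 9.62), the promoter difference -14.7 points with an odds ratio of 0.406, the index 12.0, the forkhead difference 10.6 points and the share of genes with more FOXA1-only loops 38.1%. When HNF4G loops matched within 5 kb, 9127 FOXA1-only loops remained, 21.3%, with a median span of 150 kb and a gene share of 70.0%. Starts within 5 kb gave a promoter difference of -7.37 points and a gene share of 70.8%, starts inside the anchor a gene share of 68%, and coding starts alone a promoter difference of -12.6 points. The forkhead difference was 3.04 points in the central 500 bases and 3.15 points at anchors without a start within 2 kb. The cause of these shifts was not tested. The promoter difference and its odds ratio kept their direction in the 6 alternatives run for each. The interval of the difference in loops of 100 kb or more included 0 in its 5. The forkhead difference kept its direction in its 7, all of them without regard to GC content. Within GC classes the forkhead odds ratio was 1.09 (1.02 to 1.16) over all anchors of each set. For anchors of 1 set alone it was 1.08 (0.982 to 1.18). Among these it was 1.21 (1.05 to 1.39) at promoter anchors and 0.985 (0.871 to 1.11) away from starts.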
